A study of Mus musculus with 8 samples.

Results

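Genes that encode receptors for acetylcholine or the enzymes that break it down were followed in RNA-seq libraries of the mouse primary motor cortex (M1) after knockdown of *Fezf2*. The 10 genes were chosen by name and comprised 4 muscarinic receptors (*Chrm1*, *Chrm2*, *Chrm3* and *Chrm4*), 4 subunits of neuronal nicotinic receptors (*Chrna4*, *Chrna5*, *Chrna7* and *Chrnb2*) and both cholinesterases (*Ache* and *Bche*). They are 10 of the 38031 genes with counts. For each gene the counts of 1 transcript were used, the one with the lowest Ensembl number, and coordinates of the counted intervals are those of GRCm38. The samples were M1 tissue of wildtype male Swiss Webster mice that received lentivirus between P21 and P25 and were collected between P49 and P53. The virus of both treatments carried an mCherry reporter together with either the *Fezf2 shRNA* or a *non-silencing shRNA* (control), under the *Synapsin I* promoter, which is active in neurons. M1 was dissected by its mCherry signal through all layers and with the meninges, so each library holds neurons with and without virus as well as glia and vessels. There were 4 libraries of each treatment, with 54684016 to 58003814 counts on genes, and nothing in the labels names the animal behind a library, so p values measure the spread between these libraries.

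Acetylcholine reaches the motor cortex mainly in axons of the basal forebrain. It opens nicotinic receptors, which are cation channels built of α and β subunits, and it activates muscarinic receptors, which act through G proteins. *Chrm1* and *Chrm3* encode receptors that couple to Gq and thereby to phospholipase C, whereas *Chrm2* and *Chrm4* encode receptors that couple to Gi/o and lower adenylyl cyclase activity. Acetylcholinesterase ends the signal at the synapse, and butyrylcholinesterase is a related enzyme of glia, vessels and plasma.

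The *Fezf2 shRNA* is a 19-nt sequence, and its sense strand is shown with each of the 3 members whose treatments did not overlap, to show how much of it their transcripts contain. In each line the capitals mark the longest run of the shRNA that was found in any annotated transcript of that gene (GENCODE M21, 5′ to 3′).
Fezf2: GGGAACTACAAGAATCACA
Chrna7: ggGAACTACAAgaatcaca
Chrm2: gggaacTACAAGAAtcaca
Ache: gGGAACTACAagaatcaca
*Fezf2* held all 19 nt. The longest run was 9 nt in *Chrna7* and *Ache* and 8 nt in *Chrm2*, and it lay between 6 nt (*Chrm4*) and 9 nt over the 10 members. Runs of at least 9 nt were found in 10.5% of the 55341 genes searched, and *Fezf2* was the only gene with a run of 16 nt or more.

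*Fezf2* itself, on the minus strand of chromosome 14, had 687.5, 767.0, 734.7 and 702.2 normalized counts in control replicates 1 to 4 and 620.6, 582.9, 568.3 and 592.5 in *Fezf2 shRNA*-treated replicates 1 to 4. Normalized counts are scaled so that all libraries have the same effective size (TMM), the mean over the 8 libraries. All 4 treated libraries lay below all 4 controls. The fitted log2 fold change was -0.29, with a standard error of 0.0780 and an adjusted p of 0.0824 (edgeR's quasi-likelihood test). By the two-sided exact permutation test this difference exceeded the spread between replicates (p = 0.0286, the smallest that 4 against 4 libraries allow), but it missed the threshold across genes. That threshold asked for an adjusted p of 0.05 or less together with a log2 fold change of 0.2 or more in either direction, among genes with more than 8 CPM (counts scaled to a common library total) in at least 4 libraries.

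Of the 10 members, 8 passed the filter on low counts, and *Chrna5* and *Bche* did not. Among the 8 members tested, 1 increased past the threshold (*Chrna7*) and 0 decreased by edgeR, while DESeq2 called 2 increased and 0 decreased, both without and with its prior. DESeq2 called 7.55% of all genes tested without its prior (6.61% increased) and 7.37% with it (6.48% increased). At an unadjusted p under 0.05 the edgeR counts were 2 higher and 1 lower, 3 of 8, against 19.6% of all genes tested. Over all 9959 genes tested, 208 (2.09%) were past the threshold, 195 increased (1.96%) and 13 decreased (0.131%). The libraries of both treatments did not overlap for 3 of the 8 members, *Chrna7* and *Chrm2* with *Fezf2 shRNA* higher and *Ache* with *Fezf2 shRNA* lower, while this held for 11.8% of all genes tested (7.41% higher and 4.41% lower). The log2 fold change was above 0 for 4 of the 8 members and for 43.4% of all genes tested. The median was -0.01 over the 8 members and -0.03 over all genes. The members were chosen with earlier results of these data known. The study had listed *Chrna7*, *Chrm2* and *Ache* among its changed genes, so counts of members beside these shares are descriptions. In tissue of mixed cells, fewer cells of a type and less RNA per cell cannot be told apart.

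**Figure D1:**
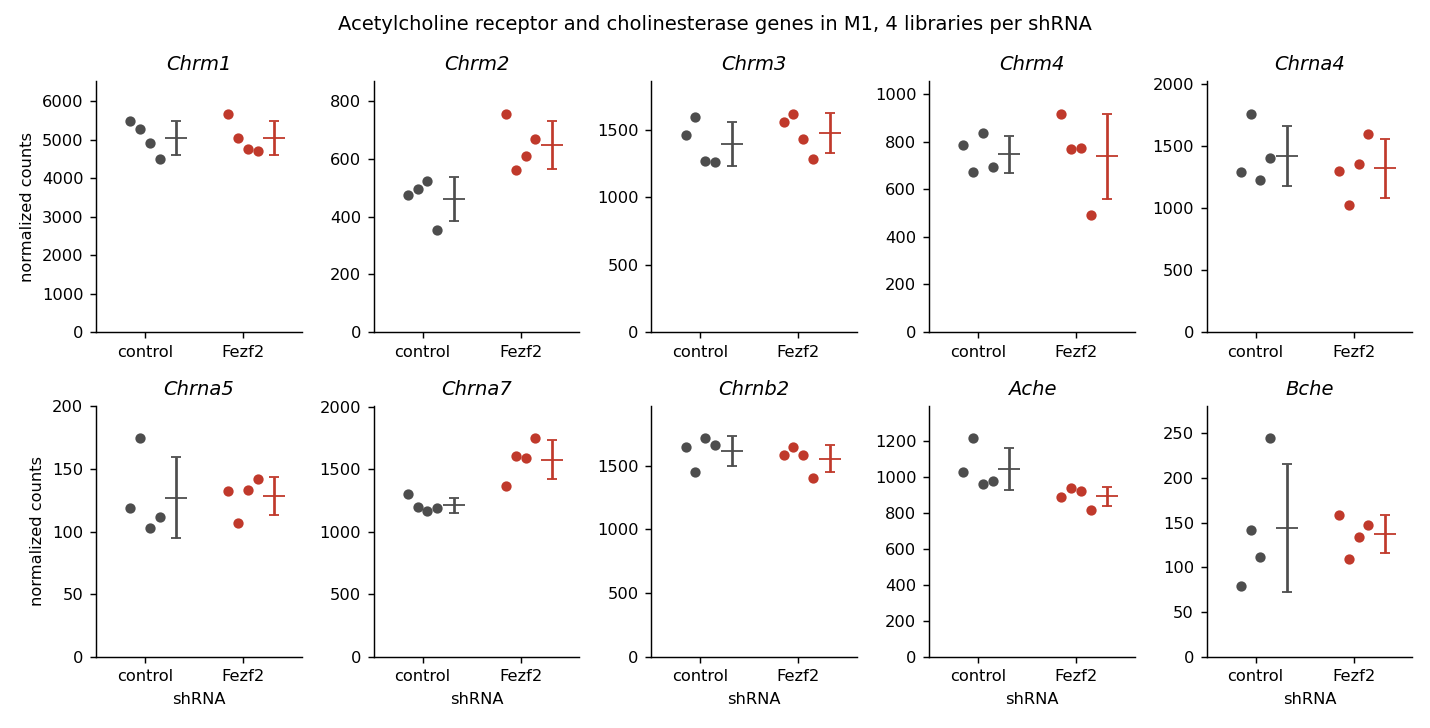
Normalized counts (y axis, from 0) of the 10 genes in each library, with control libraries in grey and *Fezf2 shRNA*-treated libraries in red; points are libraries and bars are mean ± SD (n = 4 each). The red points of *Chrna7* (1369 to 1749) and *Chrm2* (561.8 to 756.9) lie above all grey points, and those of *Ache* (814.2 to 936.6) lie below them.

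The muscarinic receptors coupled to Gq had like values in both treatments. *Chrm1* (chr19:8664005-8681567, plus strand), the member with the most counts, had 5496, 5269, 4917 and 4493 normalized counts in the controls and 5677, 5045, 4755 and 4709 with *Fezf2 shRNA*. The means were 5044 ± 438 and 5047 ± 446 (SD, n = 4 each), and the log2 fold change was 0.00 with a 95% interval of -0.18 to 0.18 (adjusted p = 0.997, edgeR). The interval counted for *Chrm1* spans 17.6 kb and holds its whole coding sequence. A second transcript runs on for 2.02 kb that are fully exonic, and this stretch had 513 ± 61.8 normalized counts in the controls and 570 ± 86.5 with *Fezf2 shRNA* (SD, n = 4 each; exact permutation test, p = 0.343).

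*Chrm3* (chr13:9877229-9878998, minus strand) was counted over a single coding exon of 1.77 kb, without introns. Its normalized counts were 1463, 1595, 1266 and 1260 in the controls and 1559, 1617, 1433 and 1283 with *Fezf2 shRNA*. The ranges overlapped, and the log2 fold change of 0.08 had a 95% interval of -0.14 to 0.29 (adjusted p = 0.684, edgeR).

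The muscarinic receptors coupled to Gi/o did not pass the test by edgeR, and their difference from each other was not tested. For *Chrm2* (chr6:36388195-36444497, plus strand) the controls had 477.0, 494.5, 524.2 and 353.1 normalized counts, and the *Fezf2 shRNA*-treated libraries had 756.9, 561.8, 610.1 and 668.1. Every treated library lay above every control, although control replicate 3 and treated replicate 2 were close. The means were 462 ± 75.3 and 649 ± 83.9 (SD, n = 4 each), 40.5% higher with *Fezf2 shRNA*. The log2 fold change was 0.49, the largest among the members (standard error 0.137, 95% interval 0.19 to 0.79), and the adjusted p of 0.0918 from edgeR missed the threshold (exact permutation test, p = 0.0286). DESeq2 placed *Chrm2* past the threshold without its prior (0.50, adjusted p = 0.0153) and with it (0.37, adjusted p = 0.0153).

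The counts of *Chrm2* came from a part of the gene that does not encode the receptor. The transcript with the lowest number, ENSMUST00000169004, is a processed transcript of 3 exons over 56.3 kb, of which 1.24% is exonic, and none of the coding sequence lies inside it. The whole gene is covered by ENSMUST00000172278, which spans 140.3 kb and holds the 1398-nt coding sequence in 1 exon. The start of that coding sequence is shown to mark where the part that encodes the receptor begins, at chr6:36523210-36523239 on the plus strand of GRCm38, with the start codon in capitals.
Chrm2: ATGaataactcaactaactcctcgaacaat

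The gene was therefore divided into the 5′ part, which is the interval above, and the remaining 84.0 kb, called the 3′ part, which holds the coding exon. In the 3′ part the normalized counts were 1386, 1448, 1340 and 1222 in the controls and 1456, 1042, 1565 and 1236 with *Fezf2 shRNA*. Here the treatments overlapped, with means of 1349 ± 95.8 and 1325 ± 233 (SD, n = 4 each; exact permutation test, p = 0.914). Over the whole 140.3 kb the log2 fold change of *Chrm2* was 0.12 (standard error 0.107, 95% interval -0.11 to 0.36, adjusted p = 0.533, edgeR), and the treatments overlapped.

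The log2 ratio of the 5′ part over the 3′ part was -1.54, -1.55, -1.35 and -1.79 in the controls and -0.94, -0.89, -1.36 and -0.89 with *Fezf2 shRNA*. Of the treated libraries 3 stood above the controls and replicate 3 stood within them. The mean ratio was higher by 0.54 with *Fezf2 shRNA*, which was not larger than the spread between replicates by the two-sided exact permutation test (p = 0.0571). The 5′ part also shares 2.00 kb (3.55%) with the long noncoding gene *9330158H04Rik* on the opposite strand and 0.084 kb with the miRNA gene *Mir490* on its own strand. Whether the counting separated strands is not given in the sources used here, so reads of overlapping genes cannot be told apart.

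**Figure D2:**
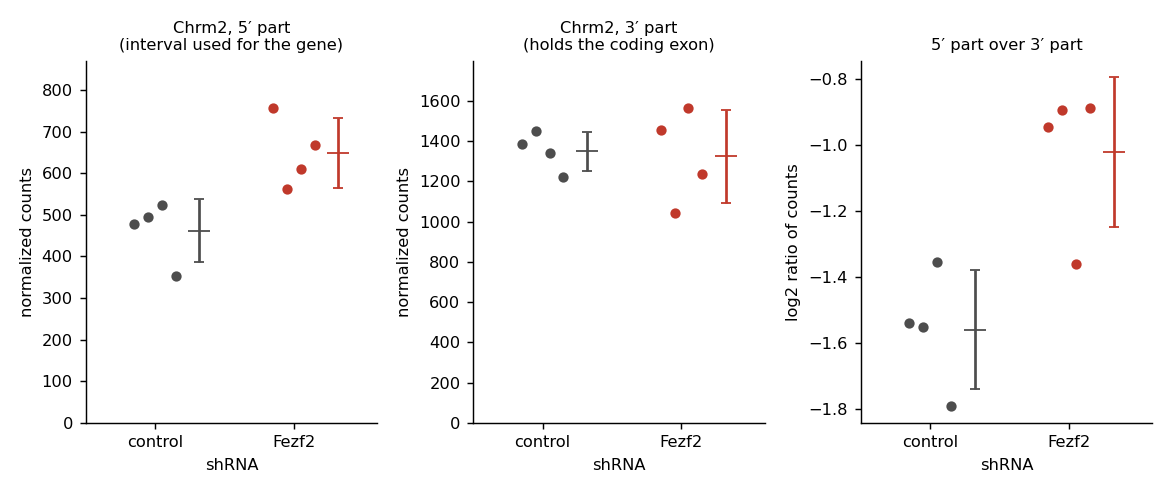
*Chrm2* by library (grey, control; red, *Fezf2 shRNA*; bars, mean ± SD, n = 4 each), with normalized counts of the 5′ part on the left, of the 3′ part with the coding exon in the middle, and the log2 ratio of both on the right. The treatments are apart in the 5′ part (353.1 to 524.2 against 561.8 to 756.9) and overlap in the 3′ part and in the ratio.

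*Chrm4* (chr2:91927249-91928688, plus strand) was counted over a single coding exon of 1.44 kb. It had 783.9, 672.0, 836.0 and 694.4 normalized counts in the controls and 916.3, 767.8, 772.3 and 492.4 with *Fezf2 shRNA*, so both the highest and the lowest library were treated ones. The log2 fold change was -0.02 with a wide 95% interval of -0.38 to 0.34 (adjusted p = 0.965, edgeR), and it was 0.13 without *Fezf2 shRNA* replicate 4. *Chrm4* is abundant in the striatum, which lies below the cortex. The summed normalized counts of 6 striatal genes were 3036 to 3452 in the controls and 2468 to 3605 with *Fezf2 shRNA*, and *Drd2* and *Adora2a*, which define striatal projection neurons, had at most 1.21 CPM in any library.

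Among the nicotinic subunits, *Chrna7* (chr7:63098692-63212513, minus strand) rose and the subunits of the heteromeric receptor did not pass the test. *Chrna7* encodes the α7 subunit, which forms homomeric channels with a high calcium permeability. Its normalized counts were 1300, 1196, 1166 and 1192 in the controls and 1369, 1606, 1595 and 1749 with *Fezf2 shRNA*. All 4 treated libraries were above all controls, and treated replicate 1 was the one nearest to them. The means were 1214 ± 59.1 and 1580 ± 157 (SD, n = 4 each), 30.2% higher. The fitted log2 fold change was 0.38 (SE 0.0801, 95% interval 0.20 to 0.56, adjusted p = 0.0390, edgeR; exact permutation test, p = 0.0286).

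With single libraries left out, the *Chrna7* difference kept its size but not its call. The log2 fold change stayed between 0.33 and 0.44 when any 1 library was left out, yet the adjusted p then lay between 0.0503 and 0.106 and the call was lost whichever of the 8 libraries was removed. Both forms of DESeq2 placed *Chrna7* past the threshold (adjusted p = 0.00131 in each).

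*Chrna7* is also a long gene, counted over 113.8 kb of which 3.91% is exonic. The interval shares 2.13 kb (1.87%) with the annotated gene *Gm44741* on the same strand. In these libraries the fold change followed genomic span: the median log2 fold change was -0.12 for the 2153 genes under 10 kb and -0.07 for the 2983 genes of 10 to 30 kb. It was 0.01 for the 3119 genes of 30 to 100 kb, 0.15 for the 1297 genes of 100 to 300 kb and 0.29 for the 407 genes above 300 kb. The value of *Chrna7* lay above the upper quartile of its span class, which was 0.25. With the trend over span removed from each library by a loess offset, the log2 fold change of *Chrna7* was 0.27 (adjusted p = 0.283, edgeR) and that of *Chrm2*, counted over 56.3 kb, was 0.45 (adjusted p = 0.275). With this offset 1 of the 9959 genes (0.01%) passed the threshold. The span class and the offset of *Chrm2* follow from the 56.3 kb interval. Over its whole 140.3 kb its log2 fold change, without the offset, was 0.12, below the 0.15 median of genes of 100 to 300 kb. *Chrm3*, with 4 annotated transcripts, was likewise placed by its counted interval of 1.77 kb. With the offset its log2 fold change was 0.18 (adjusted p = 0.550, edgeR).

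**Figure D3:**
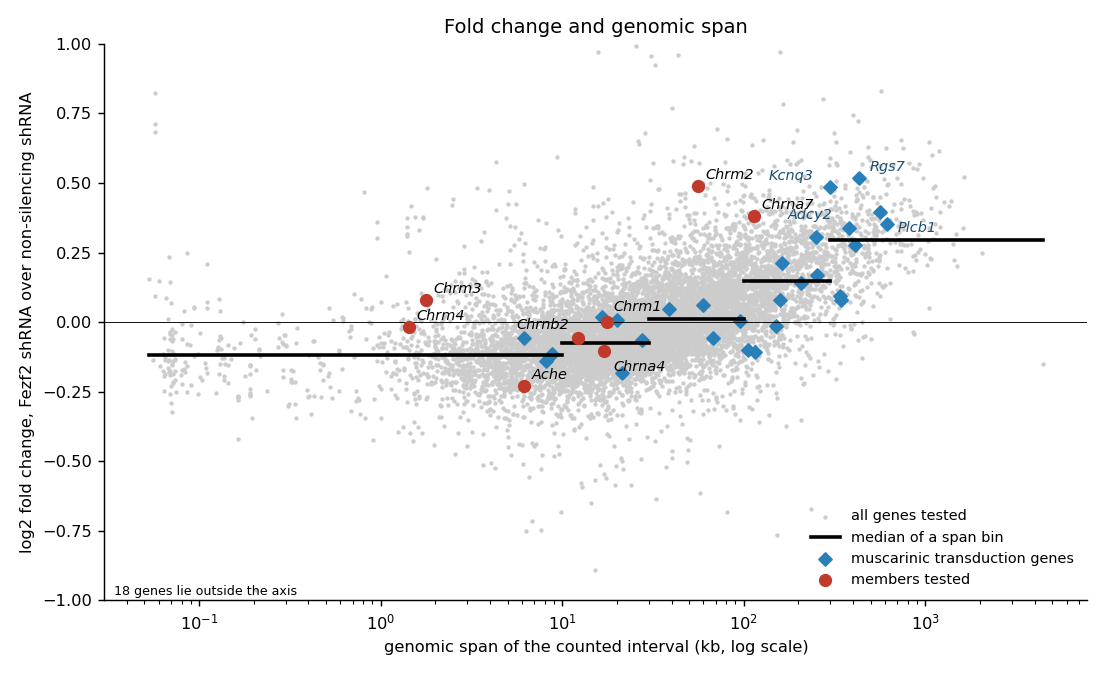
Log2 fold change of *Fezf2 shRNA* over *non-silencing shRNA* (y axis) against the genomic span of the counted interval (x axis, kb, log scale) for all genes tested in grey, the 8 members tested in red and genes of muscarinic signal transduction in blue. Black lines are the medians of 5 span classes, which go from -0.12 to 0.29, and 18 genes lie outside the axis. *Chrna7* lies above the line of its class, and so does *Chrm2* when placed by its counted interval of 56.3 kb. Over the whole 140.3 kb the value of *Chrm2* was 0.12, below the median of 0.15 for 100 to 300 kb (not drawn).

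*Chrna4* and *Chrnb2* encode the α and β subunits of the most common heteromeric nicotinic receptor of the brain. *Chrna4* (chr2:181022311-181039305, minus strand) had 1293, 1760, 1224 and 1402 normalized counts in the controls and 1301, 1023, 1354 and 1600 with *Fezf2 shRNA*. Control replicate 2 was the highest library and treated replicate 2 the lowest, and the log2 fold change of -0.11 had a 95% interval of -0.42 to 0.21 (adjusted p = 0.703, edgeR). Without control replicate 2 it was 0.01. The gene was also divided at the end of a shorter transcript: the 9.80 kb inside it and the 7.19 kb outside it overlapped between treatments (exact permutation test, p = 0.743 and 0.600).

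*Chrnb2* (chr3:89752433-89764632, minus strand) had 1646, 1448, 1715 and 1664 normalized counts in the controls and 1585, 1646, 1587 and 1403 with *Fezf2 shRNA*. The ranges overlapped, and the 95% interval of its log2 fold change of -0.06 was -0.22 to 0.11 (adjusted p = 0.697, edgeR). The counted interval shares 1.01 kb (8.31%) with *Adar* on the opposite strand, so a part of these reads may belong to that gene.

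*Chrna5* (chr9:54980880-55006918, plus strand), an accessory subunit found in deep-layer neurons of the cortex, stood at 1.85 to 3.05 CPM and was under the filter. It had 119.0, 174.5, 103.3 and 111.9 normalized counts in the controls and 132.2, 106.5, 133.4 and 142.0 with *Fezf2 shRNA*. The means were 127 ± 32.2 and 128.5 ± 15.3 (SD, n = 4 each; exact permutation test, p = 0.971). With a filter of 1 CPM its log2 fold change was 0.02 with a 95% interval of -0.43 to 0.46.

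Of the cholinesterases, *Ache* was tested and did not pass, and *Bche* was under the filter. *Ache* (chr5:137288277-137294466, plus strand) had 1028, 1212, 958.0 and 974.6 normalized counts in the controls and 889.1, 936.6, 918.6 and 814.2 with *Fezf2 shRNA*. All treated libraries lay below all controls, with control replicate 3 closest to them. The means were 1043 ± 116 and 889.6 ± 54.0 (SD, n = 4 each), and the log2 fold change was -0.23 (standard error 0.0914, 95% interval -0.43 to -0.03). The adjusted p of 0.209 from edgeR missed the threshold, and the difference exceeded the spread between replicates of this gene alone (exact permutation test, p = 0.0286).

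*Ache* is short, 6.19 kb of which 68.1% is exonic, and its log2 fold change lay below the lower quartile of genes under 10 kb, -0.19. With the offset for span it was -0.12 (adjusted p = 0.693, edgeR). A shorter transcript nested in the counted interval covers 4.06 kb and 84.3% of the coding sequence. It had 817 ± 104 normalized counts in the controls and 708.5 ± 60.6 with *Fezf2 shRNA*. The other 2.13 kb had 226 ± 34.2 and 181 ± 39.7 (SD, n = 4 each). Both parts were lower with *Fezf2 shRNA* by their means and overlapped between treatments (exact permutation test, p = 0.171 in each). Another transcript, ENSMUST00000132191, starts upstream of the counted interval, at chr5:137287519, and spans 2.64 kb. Its means were alike, 301 ± 108 in the controls and 301 ± 68.8 with *Fezf2 shRNA* (SD, n = 4 each). The other counted transcripts of *Ache* had lower means with *Fezf2 shRNA*. The interval counted for *Ache* shares 0.386 kb (6.24%) with the long noncoding gene *Gm42456* on the opposite strand. It also shares 0.097 kb (1.57%) with the miRNA gene *Mir8116* on its own strand.

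*Bche* (chr3:73635808-73708415, minus strand) stood at 1.40 to 4.59 CPM, under the filter, over an interval of 72.6 kb. It had 79.7, 141.4, 111.1 and 244.1 normalized counts in the controls and 158.4, 109.5, 134.4 and 147.1 with *Fezf2 shRNA*. The controls spread widely, from the lowest to the highest of the 8 libraries, and the treated libraries lay between them (exact permutation test, p = 0.914). Control replicate 4, the highest for *Bche*, was also the library with the highest summed normalized counts of 5 oligodendrocyte genes, 104366. The same library also had the highest sum of the 4 endothelial genes, 2329. The part of either cell type in the *Bche* values was not tested.

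**Figure D4:**
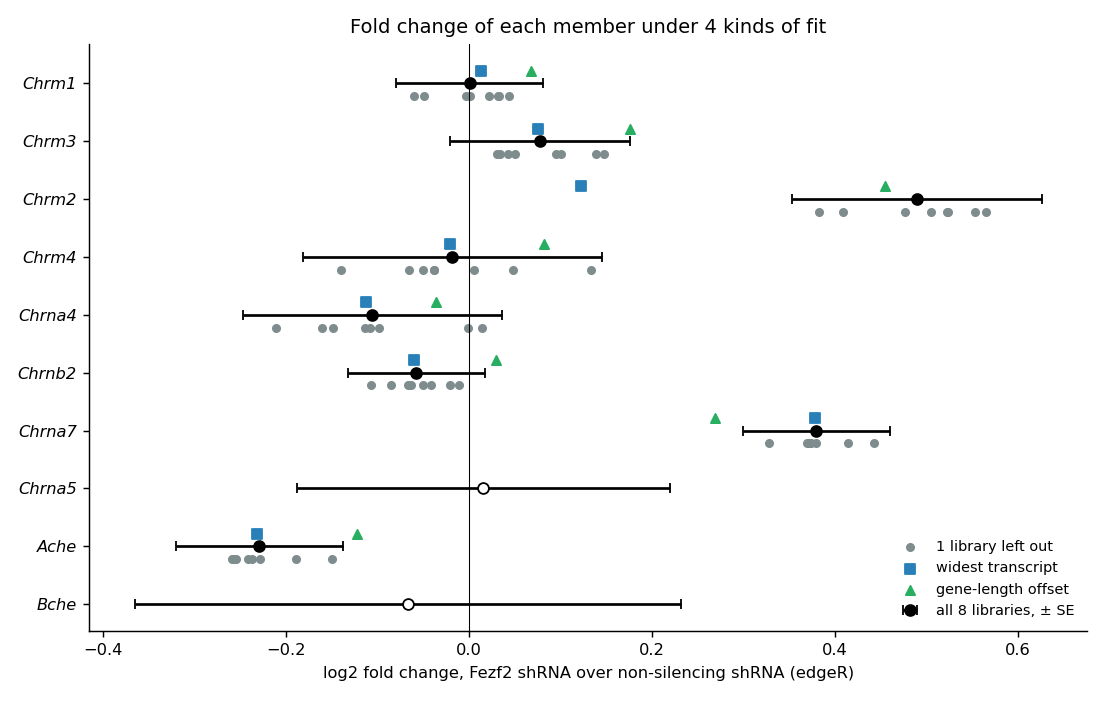
Log2 fold change of each member (x axis), with black circles and bars for the edgeR estimate ± SE over all 8 libraries (open circles for *Chrna5* and *Bche*, from the fit with a filter of 1 CPM), grey points for the fits with 1 library left out, squares for the widest transcript and triangles for the offset for span. *Chrna7* stays between 0.27 and 0.44, *Chrm2* falls to 0.12 with the widest transcript, and *Chrm1*, *Chrm4*, *Chrna4* and *Chrnb2* have estimates on both sides of 0.

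Levels were compared between members only per length, as CPM per kb of interval. They describe the interval and not the mRNA, since introns are counted for all members but *Chrm3* and *Chrm4*. The order in the controls was *Chrm3* (14.4 ± 1.68), *Chrm4* (9.45 ± 0.972), *Chrm1* (5.24 ± 0.454), *Ache* (3.07 ± 0.343), *Chrnb2* (2.42 ± 0.175) and *Chrna4* (1.52 ± 0.256). Well below them were *Chrna7* (0.194 ± 0.00947), *Chrm2* (0.150 ± 0.0244), *Chrna5* (0.0890 ± 0.0225) and *Bche* (0.0362 ± 0.0179; SD, n = 4 each). The 2 single-exon intervals stood first. Neighbours whose ranges over all 8 libraries overlapped were *Ache* and *Chrnb2*, *Chrna7* and *Chrm2*, *Chrm2* and *Chrna5*, but within single libraries *Ache* stood above *Chrnb2* in 8 of 8, *Chrm2* above *Chrna5* in 8 of 8, and *Chrna7* above *Chrm2* in 7 of 8.

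Ratios of these levels within a library are descriptions. *Chrna7* over *Chrna4* was 0.130 ± 0.0214 in the controls and 0.183 ± 0.0353 with *Fezf2 shRNA* (SD, n = 4 each), and the treated libraries lay above the controls. This ratio was not among those planned. It contains the *Chrna7* counts given above and so adds no separate evidence. *Chrna4* over *Chrnb2* was 0.638 ± 0.161 and 0.617 ± 0.154. The Gq-coupled over the Gi/o-coupled muscarinic receptors gave 2.06 ± 0.348 and 2.21 ± 0.424, and *Ache* over *Bche* gave 99.9 ± 42.7 and 77.8 ± 16.5. These last 3 ratios overlapped between the treatments. In the muscarinic ratio *Chrm2* enters with its 5′ part, which holds no coding sequence. Its level in the controls was 0.150 beside 9.45 for *Chrm4*, so the Gi/o term is mostly *Chrm4*.

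Other genes of the cholinergic synapse were followed as a list of 12, for synthesis and uptake (*Chat*, *Slc18a3*, *Slc5a7*, *Slc44a1*), receptor assembly (*Ric3*, *Tmem35a*), receptor modulators of the Ly6 family (*Lynx1*, *Lypd1*, *Ly6e*, *Ly6h*) and anchors of acetylcholinesterase (*Prima1*, *Colq*). Of these, 11 were matched (*Slc18a3* was not analysed here), 7 were tested and 0 passed the threshold by edgeR, while 1 had an unadjusted p under 0.05 (19.6% of all genes tested). DESeq2 also gave 0. Their median log2 fold change was -0.04, against -0.03 for all genes tested. *Lynx1*, which restrains nicotinic receptors, had 16741 ± 1253 normalized counts in the controls and 15172 ± 991 with *Fezf2 shRNA* (log2 fold change -0.14, adjusted p = 0.317, edgeR). *Slc44a1*, a choline transporter counted over 182 kb, had 4189 ± 174 and 4800 ± 387 (0.20, adjusted p = 0.146), and *Ly6e* had 4084 ± 189 and 3972 ± 362 (-0.04, adjusted p = 0.782; SD, n = 4 each).

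The defining genes of cholinergic neurons were close to absent. *Chat*, which makes acetylcholine, had 12.4 to 36.4 normalized counts in the controls and 14.1 to 35.8 with *Fezf2 shRNA*. *Slc5a7*, the choline uptake transporter, had 17.7 to 41.8 and 15.1 to 44.8. Both were under 1 CPM in every library. The 13 other receptor genes searched (*Chrm5* and the remaining nicotinic subunits) were all under the filter. *Chrna1* (195 normalized counts in the controls, 202 with *Fezf2 shRNA*) and *Chrnb1* (172 and 157), subunits known from muscle, had the highest means, followed by *Chrnb3* (99.7 and 91.4), and *Chrna9* and *Chrnd* had 0 counts in all libraries.

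Genes through which muscarinic receptors signal were followed as a list of 28, of which 27 were tested. There were 4 that rose past the threshold by edgeR and 0 that fell (8 and 1 at an unadjusted p under 0.05; 6 and 0 past the threshold by DESeq2), and the treatments did not overlap for 6, all with *Fezf2 shRNA* higher. Over all genes tested, 2.09% were past the threshold by edgeR, 19.6% had an unadjusted p under 0.05, 7.55% and 7.37% were called by DESeq2 without and with its prior, and 11.8% did not overlap. The median log2 fold change was 0.06 over the list and -0.03 over all genes. This list was chosen with earlier results of these data known. The study had reported *Kcnq3*, *Kcnq5*, *Plcb1*, *Prkca* and *Adcy2* as changed in the same libraries. Counts of the list beside the shares of all genes are therefore descriptions and no separate evidence. *Rgs7*, a regulator that speeds the shut-off of Gi/o, had 7816, 7994, 8650 and 7619 normalized counts in the controls and 11834, 10918, 12173 and 10969 with *Fezf2 shRNA*. Its libraries were well apart, and the fitted log2 fold change was 0.52 ± 0.0649 (SE; adjusted p = 0.0120, edgeR).

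*Kcnq3*, a subunit of the M-type potassium channel that Gq-coupled receptors close, rose from 18090 ± 2016 to 25333 ± 2443 (SD, n = 4 each; log2 fold change 0.49, adjusted p = 0.0357). *Plcb1*, the phospholipase C downstream of Gq, rose from 27908 ± 2100 to 35604 ± 1482 (0.35, adjusted p = 0.0390). *Adcy2*, an adenylyl cyclase, rose from 10839 ± 841 to 13717 ± 532 (0.34, adjusted p = 0.0357; all by edgeR). These 4 genes belong to different arms of the pathway, and they are long, from 300 to 613 kb, a class whose median was 0.29. *Prkca* (0.28, adjusted p = 0.0921) and *Kcnq5* (0.40, adjusted p = 0.0661) did not overlap either and missed the threshold.

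The most abundant genes of the list that did not pass were *Prkcb*, with 43801 ± 8154 normalized counts in the controls and 46228 ± 1755 with *Fezf2 shRNA*, *Adcy1* with 44559 ± 2406 and 41354 ± 3342, and *Itpr1* with 40881 ± 5241 and 43630 ± 1980 (SD, n = 4 each). With the offset for span 0 genes of the list passed the threshold. Without control replicates 1 or 4, or without *Fezf2 shRNA* replicate 3, the count was also 0, and without control replicate 3 or treated replicates 1 or 4 it was 1 (*Rgs7*).

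Markers of cell types were read from the same fit, and 0 of the 34 tested passed the threshold by edgeR (1 higher and 8 lower at an unadjusted p under 0.05). Over all genes tested, 2.09% passed it and 19.6% had an unadjusted p under 0.05. Those that DESeq2 placed past it included *Fezf2* and *Mog*. The 5 oligodendrocyte genes had a median log2 fold change of -0.55, with summed normalized counts of 56563 to 104366 in the controls and 42399 to 70284 with *Fezf2 shRNA*. The 5 genes of layer 5 and 6 neurons, which include *Fezf2*, the target of the shRNA, had a median of -0.18 (8557 to 10709 against 6645 to 9504), and the 6 of inhibitory neurons had -0.10 (15787 to 18380 against 14985 to 16525). The 4 excitatory neuron genes had a median of 0.04 (65029 to 74637 against 69477 to 77114). The summed counts overlapped between the treatments for all of these lists, and for the lists of astrocytes, microglia, endothelial cells and meninges. Their part in the values of *Chrna7*, *Chrm2* and *Ache* was not tested.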

How the data were processed

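The members and the gene lists were chosen with earlier results of these data known. The labels place 4 libraries in each treatment. The deposited raw counts per Ensembl transcript were made by the authors with TopHat2 2.1.1 (mm10, GRCm38) and bedtools 2.26.0 multiCov, which counts reads over a whole interval, introns included. The kit, a TruSeq total RNA kit, is named differently in the labels and in the study's methods, and strand handling is not stated. A deposited table of the authors' DESeq2 results (fold changes and p values) was not used.

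Of 94647 transcripts, 91320 matched GENCODE M21, and the other 3327 held 1.82% of counts and were left out. Tests used edgeR 4.0.16 (TMM, quasi-likelihood, Benjamini-Hochberg over 9959 genes) in R 4.3.3. DESeq2 1.42.0 was an alternative. The 95% intervals come from the same fit. Steps were tested on simulated data. Single genes and parts (mean of at least 100 reads) were compared by two-sided exact permutation tests. Where transcripts of a member are nested, the pair whose smaller part had the most reads was used, a choice made after seeing the data. Named genes are all members, *Fezf2*, overlapping genes, list genes past the threshold, and up to 3 per list with the highest means that did not pass; others (*Chat*, *Slc5a7*, *Chrna9*, *Chrnd*, *Prkca*, *Kcnq5*, *Drd2*, *Adora2a*, *Mog*) were named after their values were seen. Some results are not reported here. Alternatives were other scalings, filters, DESeq2, the widest transcript, a replicate block, an offset for span (loess, span 0.3) and each library left out. Each library had at least 54684016 counts. Replicate spread, the interval counted and genomic span all limit the results, and these limits were not ranked.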

Additional observations from a re-analysis of the deposited data

Results flagged for a closer look

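One value stood apart from the rest of its treatment. For *Chrm2*, the log2 ratio of the 5′ part over the 3′ part was -1.36 in *Fezf2 shRNA* replicate 3, whereas the other 3 treated libraries lay between -0.94 and -0.89. The gap to the nearest of them, set against the whole range of the 4 libraries, exceeded Dixon's critical value. It was 1 of 52 groups of 4 libraries examined in this way, and chance marks about 1 in 20. In that library the 3′ part had the highest count of all 8 (1565).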

How the results depend on the processing

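With library totals, a filter of 1 CPM, no filter, the replicate block, the offset for span, and block and offset together, 0 members passed the threshold in place of 1, and with DESeq2 (both forms) 2 did. Leaving out 1 library gave 0 in each case. For all genes the count of 208 became 136 with library totals, 84 with 1 CPM, 103 without a filter, 752 and 734 with DESeq2 without and with its prior, 90 with the replicate block, 1 with the offset, 2 with block and offset, and 0 to 368 with 1 library left out. For the transduction list the count of 4 became 1 with 1 CPM, without a filter and with the block, 0 with the offset or both, and 0 to 6 with 1 library left out. Log2 fold changes turned direction for *Chrm1* (-0.0250 with library totals; -0.0601 to 0.0443 with 1 library left out), *Chrm4* (0.0819 with the offset, 0.0603 with block and offset; -0.140 to 0.133), *Chrnb2* (0.0302 with the offset, 0.0306 with both) and *Chrna4* (-0.211 to 0.0139). *Chrna7* was 0.35 with library totals (adjusted p = 0.0667, edgeR), 0.38 with 1 CPM (0.0604), 0.39 without a filter (0.0702), 0.38 with the block (0.0826) and 0.27 with block and offset (0.288). The cause was not tested, apart from the number of genes tested, which was 16481 with 1 CPM and 29623 without a filter.

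Same-numbered libraries of the treatments were not paired by the labels, and the correlations of their deviations were 0.30, 0.09, -0.13 and 0.17, so the replicate block is given here only. *Chrna5* and *Bche* had low counts (SD of the control counts 28.4 and 74.0, against a Poisson counting error of 11.3 and 12.1). At 4 libraries each, the exact test cannot go below 0.0286. The single transcript taken per gene sets what is measured, as for *Chrm2*.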
